A study of Mus musculus with 8 samples.

Results

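The microRNAs (miRNAs) described here are those that blood cells and the lining of blood vessels are known for, read in small RNA libraries of mouse sperm. They were chosen by name, as every miRNA row of the count table for miR-451, miR-144, miR-486, miR-142, miR-223, miR-155, miR-150 or miR-126. The rule found 19 rows, 15 of mature miRNAs and 4 of precursors, among 952 miRNA rows and 1010917 rows in all. All samples were labelled mature sperm of C57BL/6J mice, in 4 EtOH-Cessation libraries and 4 Control-Cessation libraries. The series title places the sampling 1 month after alcohol treatment ended, so the comparison asks whether sperm small RNA still differed then. The labels give no dose, age or separate animal for each library, so p-values measure only the spread between these samples. The submitters' own design statement names the caput epididymis, the first part of the duct in which sperm mature, so label and statement differ.

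A miRNA is cut from a hairpin precursor and guides Argonaute proteins to messenger RNAs, mainly through its seed, bases 2 to 8. Several of the miRNAs here are so abundant in a single blood lineage that they are used to detect traces of blood in other samples. miR-451a and miR-144 come from a single primary transcript switched on in red blood cell precursors, and miR-451a is matured by Argonaute 2 (Ago2) without the nuclease Dicer. miR-486 lies in the gene of the red blood cell membrane protein ankyrin 1 (Ank1). miR-142 is found in blood cells in general, miR-223 in neutrophils and other myeloid cells, miR-155 in activated lymphocytes and macrophages, and miR-150 in mature lymphocytes. miR-126 lies in an intron of Egfl7 and marks endothelium, the inner lining of vessels.

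RefSeq mature sequences matched 9 of the 15 mature rows, and the 7 with counts that bear on the results are shown 5′ to 3′ with the seed in capitals, to show that they are distinct sequences, with no seed shared between any of them. Coordinates are those of the RefSeq table on GRCm38.p6, + strand for each.
miR-451a, chr11:78073186-78073207: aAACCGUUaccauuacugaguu
miR-144-5p, chr11:78073010-78073032: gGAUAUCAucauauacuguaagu
miR-144-3p, chr11:78073047-78073066: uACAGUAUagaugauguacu
miR-142a-5p, chr11:87756867-87756887: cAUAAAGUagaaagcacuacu
miR-223-3p, chrX:96242884-96242905: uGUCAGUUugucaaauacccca
miR-155-5p, chr16:84714143-84714165: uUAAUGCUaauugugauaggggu
miR-126a-3p, chr2:26591402-26591423: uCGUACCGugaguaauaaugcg
The miR-144 and miR-451a hairpins stand 99 bases apart on the same strand. miR-150-5p, miR-126a-5p, miR-486a-5p and miR-486b-5p are also members.

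These rows were a small part of each library. Together they held 237, 178, 381 and 429.9 CPM (counts scaled to a fixed library total) in EtOH replicates 1 to 4, and 762, 1483, 610.3 and 2312 CPM in control replicates 1 to 4. Every control library lay above every EtOH library. Totals were 3116421 to 6805989 counts in the EtOH libraries and 4210785 to 4768713 in the controls. miRNAs as a class held 6.96% to 10.1% of the counts in the EtOH libraries and 16.8% to 27.7% in the controls. As a share of miRNA counts, the members held 0.245%, 0.256%, 0.376% and 0.616% in EtOH replicates 1 to 4, and 0.410%, 0.535%, 0.344% and 1.38% in control replicates 1 to 4. On that scale the groups overlapped, and control replicate 4 stood highest.

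The 3 cell classes did not share 1 order of libraries. Red blood cell rows summed to 164, 133, 167 and 252 CPM of the library total in EtOH replicates 1 to 4, and 465, 1129, 216 and 1891 CPM in control replicates 1 to 4. Control replicate 3 lay below EtOH replicate 4, and control replicate 4 held most. Leukocyte rows summed to 52.9, 26.3, 169.9 and 123 CPM in EtOH replicates 1 to 4, and 256, 271, 302 and 363 CPM in control replicates 1 to 4, with no overlap. Without the 2 miR-142a rows, described later with their zeros, the leukocyte sums were 34.3, 26.3, 21.7 and 11.8 CPM in EtOH replicates 1 to 4, and 40.2, 215, 56.4 and 74.7 CPM in control replicates 1 to 4. Endothelial rows summed to 20.2, 19.6, 44.2 and 54.5 CPM in EtOH replicates 1 to 4, and 40.9, 82.9, 92.4 and 57.7 CPM in control replicates 1 to 4. EtOH replicates 3 and 4 lay above control replicate 1. As a share of miRNA counts, red blood cell rows averaged 0.221% ± 0.0937 in EtOH libraries and 0.476% ± 0.449 in controls, and endothelial rows 0.0427% ± 0.0255 in EtOH libraries and 0.0346% ± 0.0127 in controls (SD, n = 4 each). Both differences were smaller than the larger of the 2 SDs.

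**Figure D1:**
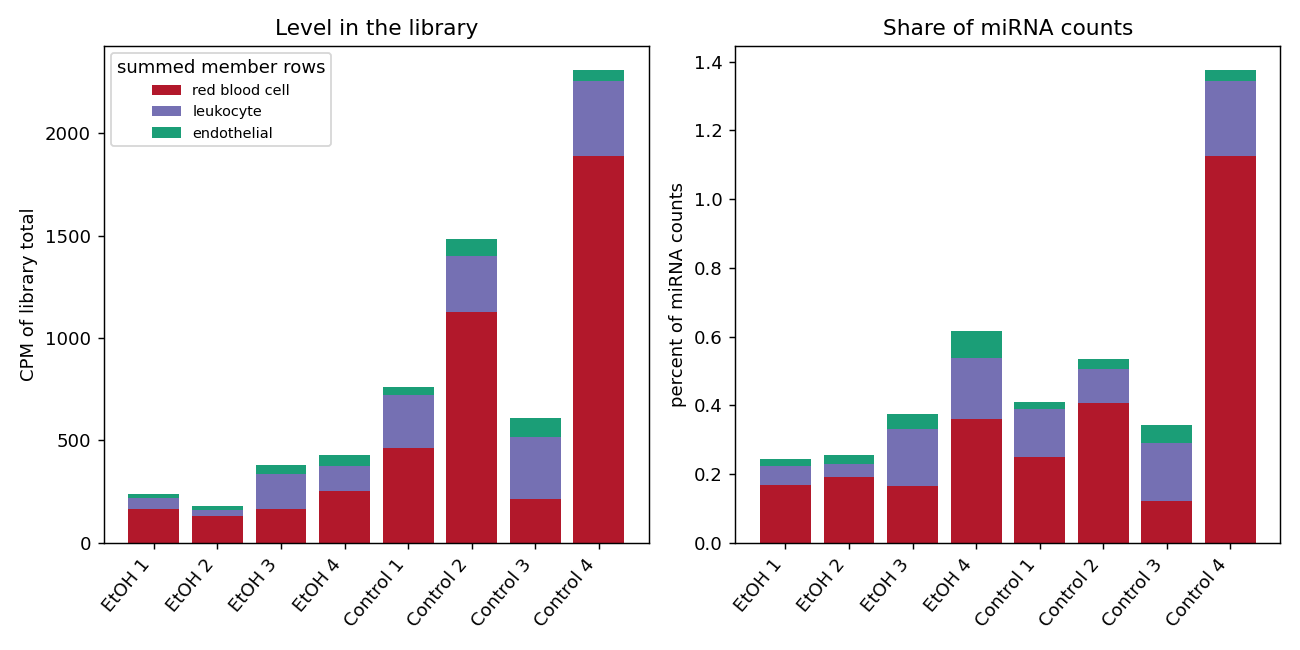
Stacked bars give the summed counts of all member rows by cell class in each library, as CPM of the library total (left) and as percent of the library's miRNA counts (right). The 4 EtOH libraries, 178 to 429.9 CPM, lie below the 4 controls, 610.3 to 2312 CPM, on the left, while the groups overlap on the right, where EtOH replicate 4 (0.616%) exceeds 3 controls.

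Of the 19 rows, 12 passed the filter on low counts and were tested. All 12 had fitted values below 0, with a median log2 fold change (EtOH over control) of -2.14, against -1.56 for the 228 miRNA features tested and -0.09 for all 10234 features. None passed an adjusted p below 0.05 in edgeR's quasi-likelihood test over all features, a threshold that 0.137% of features passed as lower in EtOH and 0.186% in either direction. At an unadjusted p below 0.05, 10 of the 12 were lower, against 9.15% of all features and 66.7% of miRNA features. Of the 10, 7 had an adjusted p of 0.0525, a value shared by 437 features. The alternative test DESeq2 put 7 of its 19 member rows past its own adjusted threshold, against 0.448% of its 42849 features called lower. It gave no adjusted p to the rarest member rows, those with 6 counts or fewer over all libraries, so these could not pass. DESeq2 also covered more features than the 10234 of the main fit, so the test was not the only change. The alternative limma voom put 1 member row past the threshold, against 2.34% of features. With edgeR, 7 passed with no filter on low counts (0.0203% of 867194 features lower, against 10234 features tested with the filter). The count was also 7 with features left out that had a count of 0 where many were predicted (1.73%). It was 3 with library size as the only scaling (0.967%). Shares among miRNA features were not computed in these fits, and miRNAs as a class had a median of -1.56 in the main fit. In bulk libraries, fewer cells of a type and less RNA per cell cannot be told apart.

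**Figure D2:**
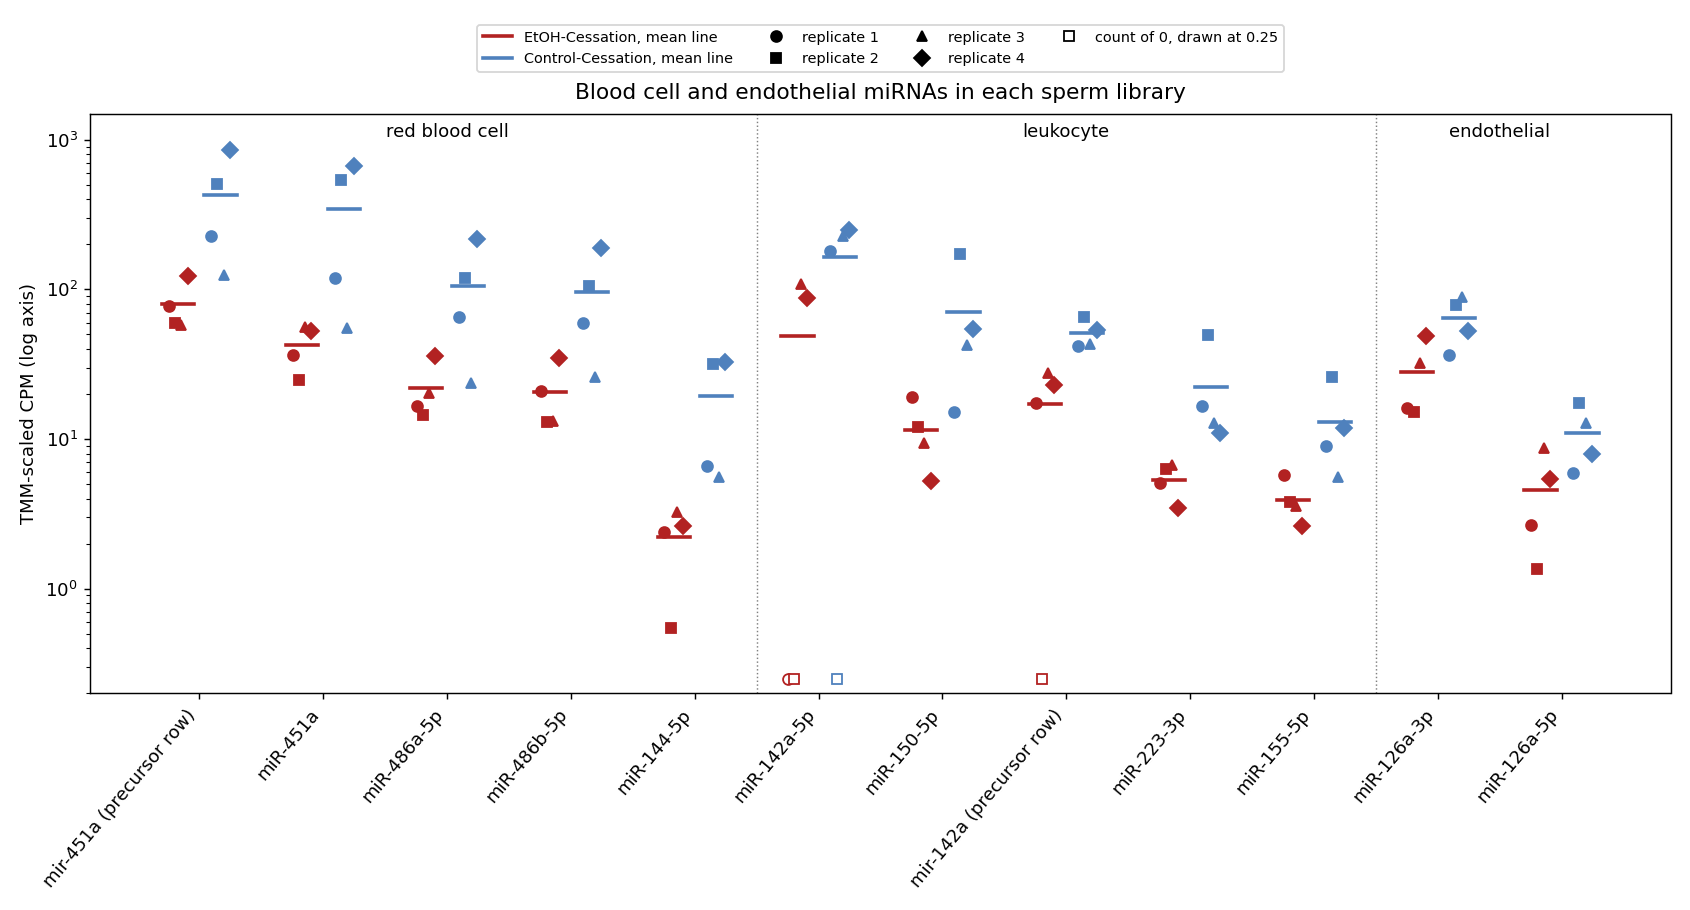
Points give the scaled CPM (log axis) of each of the 12 tested member rows in each library, EtOH left of control, with short lines for group means and open symbols for counts of 0. Control replicates 4 and 2 hold the highest values of the red blood cell miRNAs, and miR-142a-5p is at 0 in EtOH replicates 1 and 2 and in control replicate 2.

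The red blood cell miRNAs had the lowest median log2 fold change of the 3 classes, -2.43, against -1.74 for leukocyte and -1.22 for endothelial miRNAs. The red blood cell rows include the mature and precursor rows of miR-451a and both copies of miR-486, so they are not all separate measurements. Both miR-142a rows hold counts of 0 in libraries where many were predicted, and without these rows the leukocyte median was -2.06 over 3 members and the median of all 10 remaining members -2.25. The order of these 2 classes was less clear without control replicate 4, and it reversed when the miR-142a rows were also left out. The median was then -2.35 for leukocyte and -1.92 for red blood cell miRNAs. With the miR-142a rows kept, the leukocyte median without control replicate 4 was -1.83. Fitted values without that library were -1.92, -2.54, -1.72, -1.70 and -2.73 for mir-451a, miR-451a, miR-486a-5p, miR-486b-5p and miR-144-5p. They were -2.81, -2.35, -1.83, -1.45 and -1.57 for miR-150-5p, miR-223-3p, miR-155-5p, miR-142a-5p and mir-142a. In CPM corrected for library makeup by edgeR's TMM factors (scaled CPM), miR-451a had 36.2, 24.8, 56.1 and 52.5 in EtOH replicates 1 to 4, and 119, 540, 55.3 and 673 in control replicates 1 to 4. Control replicates 2 and 4 were well above every EtOH library, while control replicate 3 lay among them. The fitted log2 fold change was -3.03 (SE 0.70, adjusted p = 0.0525).

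miR-144-5p, the partner of miR-451a on the same transcript, was rarer and followed the same order of control libraries. It had 2.38, 0.544, 3.27 and 2.60 scaled CPM in EtOH replicates 1 to 4, and 6.64, 31.9, 5.56 and 32.9 in control replicates 1 to 4. The groups did not overlap. This held with EtOH lower for 4 of the 12 tested members (miR-144-5p, mir-451a, miR-223-3p and mir-142a), against 7.81% of all features and 48.7% of miRNA features. Its log2 fold change was -3.08 (SE 0.68, adjusted p = 0.0525), on counts of 17, 2, 24 and 15 in the EtOH libraries and 28, 116, 22 and 149 in the controls. The other arm, miR-144-3p, was not tested, with counts of 0, 0, 27 and 0 in the EtOH libraries and 15, 0, 5 and 118 in the controls. In control replicate 2 it was at 0 beside 116 counts of miR-144-5p.

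The precursor row mir-451a, which counts reads on the hairpin under its precursor name, had 9046 counts over all libraries, against 6795 for the mature row. It had 77.1, 59.6, 58.3 and 122 scaled CPM across the EtOH libraries, and 227, 507, 124 and 849 in the controls. EtOH replicate 4 stood just below control replicate 3, and the groups did not overlap. Its log2 fold change was -2.43 (SE 0.57, adjusted p = 0.0525). The table also lists the precursor in a separate hairpin class, with counts of 388, 160, 350 and 485 in the EtOH libraries and 708, 1467, 411 and 2650 in the controls. How reads were divided among these 3 rows is not known from the labels, and they are not separate measurements.

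miR-486 is represented by near-identical copies, miR-486a-5p and miR-486b-5p, and reads of 1 may be counted under the other. miR-486a-5p had 16.5, 14.4, 20.4 and 36.1 scaled CPM across the EtOH libraries, and 65.2, 119, 23.7 and 217 in the controls. Again control replicate 4 was highest and control replicate 3 lay within the EtOH range. The copy miR-486b-5p had 20.9, 13.1, 13.2 and 34.9 scaled CPM across the EtOH libraries, and 59.3, 106, 26.0 and 191 in the controls, in the same order of controls. Their log2 fold changes were -2.28 (SE 0.60) and -2.22 (SE 0.59), and the 2 rows summed gave -2.25 (adjusted p = 0.0525 for each). Without control replicate 4 the control mean of miR-486a-5p was 69.3 ± 47.7 (SD, n = 3), against 106 ± 83.6 with it (SD, n = 4). The opposite arms miR-486a-3p and miR-486b-3p had too few counts to test, 4 and 0 over the EtOH libraries and 18 and 4 over the controls.

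For miR-150-5p, miR-223-3p and miR-155-5p, control replicate 2 rather than control replicate 4 stood highest. miR-150-5p, the lymphocyte miRNA, had 19.2, 12.0, 9.39 and 5.20 scaled CPM across the EtOH libraries, and 15.2, 173, 42.4 and 54.7 in the controls. Control replicate 1 lay within the EtOH range. Its log2 fold change was -2.63 (SE 0.67, adjusted p = 0.0525), and the control mean of 71.2 ± 69.5 (SD, n = 4) became 37.4 ± 20.2 without control replicate 2 (SD, n = 3).

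The myeloid miR-223-3p had 5.05, 6.26, 6.67 and 3.47 scaled CPM across the EtOH libraries, and 16.6, 49.2, 12.9 and 11.0 in the controls. All 4 controls lay above all EtOH libraries. The log2 fold change was -2.06 (SE 0.53, adjusted p = 0.0525). Without control replicate 2 the control mean was 13.5 ± 2.83 (SD, n = 3), against 22.4 ± 18.0 with it (SD, n = 4) and 5.36 ± 1.44 in the EtOH libraries (SD, n = 4). miR-155-5p, from activated immune cells, had 5.75, 3.81, 3.54 and 2.60 scaled CPM across the EtOH libraries, and 9.01, 25.9, 5.56 and 11.9 in the controls (log2 fold change -1.72, SE 0.51, adjusted p = 0.0606). EtOH replicate 1 lay slightly above control replicate 3. The rarest leukocyte rows were not tested. The precursor row mir-155 had 17 counts over the EtOH libraries, 12 of them in EtOH replicate 1, and 9 over the controls, while miR-223-5p, mir-223 and miR-150-3p had 6, 3 and 1 counts over all libraries.

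miR-142a-5p, the most abundant leukocyte row, was listed at 0 in 3 libraries. Its counts were 0, 0, 804 and 504 in the EtOH libraries, and 765, 0, 895 and 1135 in the controls. The same 3 libraries held reads of the same hairpin, with 100, 49 and 268 counts in EtOH replicates 1 and 2 and control replicate 2 in the hairpin class, so a count of 0 there is not read as absence. In the libraries with counts it had 109 and 87.4 scaled CPM in EtOH replicates 3 and 4, and 181, 226 and 250 in control replicates 1, 3 and 4. The precursor row mir-142a had 124, 0, 204 and 133 counts in the EtOH libraries, and 176, 238, 172 and 241 in the controls. Fitted log2 fold changes were -1.74 (SE 1.61, adjusted p = 0.539) for miR-142a-5p and -1.57 (SE 0.81, adjusted p = 0.233) for mir-142a, and both rest on the zeros. The hairpin class row of mir-142a, which had no zero, held 100, 49, 147 and 107 counts in the EtOH libraries and 157, 268, 154 and 270 in the controls.

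The endothelial miR-126 had the fitted fold changes closest to 0. miR-126a-3p, its main arm, had 16.1, 15.2, 32.3 and 48.6 scaled CPM across the EtOH libraries, and 36.3, 78.7, 88.4 and 52.7 in the controls. EtOH replicate 4 lay above control replicate 1, and the groups overlapped. The log2 fold change was -1.19 (SE 0.47, adjusted p = 0.131). The other arm, miR-126a-5p, had 2.66, 1.36, 8.71 and 5.38 scaled CPM across the EtOH libraries, and 5.93, 17.3, 12.9 and 7.94 in the controls. EtOH replicate 3 lay above 2 of the controls, with a log2 fold change of -1.25 (SE 0.55, adjusted p = 0.165). For both arms the highest control was not control replicate 4, the library with the most red blood cell miRNA.

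Because miRNAs took a smaller part of the EtOH libraries, the 12 members were also tested within the 241 miRNA features alone. There 0 of 12 passed the adjusted threshold in edgeR, against 0.415% of miRNA features in either direction, and DESeq2 also called 0. At an unadjusted p below 0.05, 1 member was lower, miR-144-5p, against 2.07% of miRNA features. Its log2 fold change within miRNAs was -1.71 (SE 0.68, adjusted p = 0.428), and only 1 miRNA feature had a lower fitted value. miR-451a had -1.60 (SE 0.73, adjusted p = 0.485), miR-150-5p -0.94 (SE 0.62, adjusted p = 0.687) and miR-223-3p -0.42 (SE 0.40, adjusted p = 0.769). miR-126a-3p lay above 0, at 0.24 (SE 0.51, adjusted p = 0.970). The member median within miRNAs was -0.75 (-0.81 without the miR-142a rows), against -0.09 for all miRNA features, with -0.96, -0.42 and 0.15 for the red blood cell, leukocyte and endothelial rows. The groups overlapped within miRNAs in all 12 members, while 1.24% of miRNA features did not overlap with EtOH lower. Without control replicate 4, miR-486a-5p and miR-486b-5p lay above 0 within miRNAs, at 0.06 and 0.10, and miR-451a was at -0.67.

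**Figure D3:**
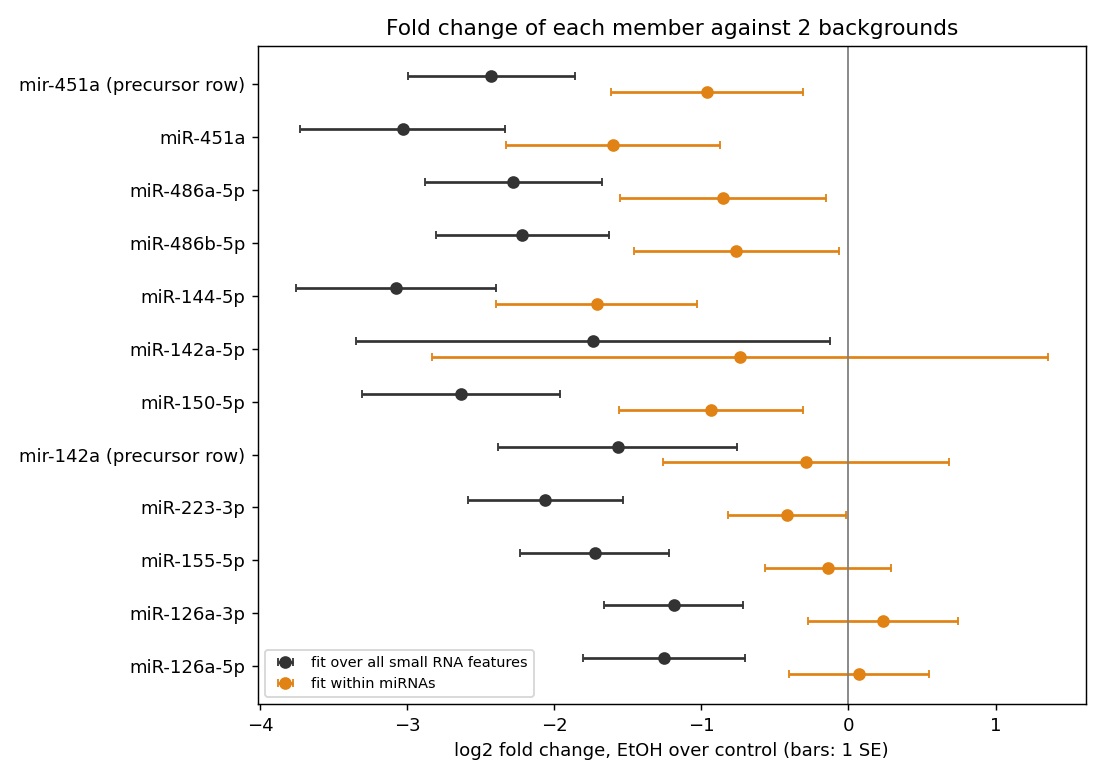
Points give the log2 fold change (EtOH over control, bars of 1 SE) of each tested member in the fit over all small RNA features and in the fit within miRNAs alone. All 12 lie below 0 in the first fit, and 10 of 12 in the second, where miR-126a-3p and miR-126a-5p lie at 0.24 and 0.07.

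Ratios within a library, which do not depend on its depth, asked whether members moved apart from each other. The log2 ratio of miR-451a to miR-126a-3p was 1.16, 0.70, 0.80 and 0.11 in the EtOH libraries, and 1.71, 2.78, -0.68 and 3.67 in the controls. The controls spread on both sides of the EtOH libraries, and the means of 0.69 ± 0.43 and 1.87 ± 1.88 (SD, n = 4 each) differed by less than the spread of the controls (two-sided exact permutation p = 0.257). For miR-150-5p and miR-223-3p over miR-126a-3p the difference between groups was -0.99 and -0.54 (exact permutation p = 0.371 and 0.429). The arms of miR-126a had a log2 ratio of 2.74 ± 0.66 in the EtOH libraries and 2.56 ± 0.27 in the controls (SD, n = 4 each, exact permutation p = 0.657). Ratios that use miR-144-3p or miR-142a-5p rest on rows at 0. They were miR-144-3p over miR-144-5p, miR-144-3p over miR-451a and miR-142a-5p over miR-126a-3p, with exact permutation p of 0.943, 0.83 and 0.686. Over the 7 ratios the adjusted p was 0.943 for each, and the smallest p that 4 libraries against 4 can give was 0.0286.

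The EtOH libraries carry identifiers of 2 forms, M for replicates 1 and 2 and EM for replicates 3 and 4, while all controls share a single form. With the M libraries alone, 10 of 13 tested members were lower at an adjusted p below 0.05, against 2.69% of features, and with the EM libraries alone 0 were, against 0.0565%. The 10 include miR-142a-5p and miR-144-3p, which were at 0 in both M libraries, and the zeros of miR-142a-5p are not read as absence. Without them, 8 of 11 were lower. The M and EM groups hold 2 libraries each, and their difference was not tested. miR-451a had a log2 fold change of -3.67 (adjusted p = 0.0141) with the M libraries and -2.57 (adjusted p = 0.171) with the EM libraries. For miR-126a-3p the values were -2.19 (adjusted p = 0.0140) and -0.52 (adjusted p = 0.633). Single libraries also moved the count. Without EtOH replicate 2, 5 members passed (1.83% of features lower in EtOH), and without EtOH replicate 3, 9 passed (3.63%). Without any other library none did. Shares among miRNA features were not computed in these fits.

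Other miRNAs known from the same cells were read from lists named by cell type. None of the 7 erythroid, 6 leukocyte and 4 endothelial features tested outside the members passed the edgeR threshold over all features or within miRNAs. Their median log2 fold changes were -1.61, -1.90 and -1.69 over all features, and -0.22, -0.28 and 0.001 within miRNAs, with 4, 6 and 3 features lower at an unadjusted p below 0.05 over all features, against 66.7% of miRNA features. miR-16-5p, abundant in red blood cells and in most tissues, had 21599 ± 5299 scaled CPM across the EtOH libraries and 63171 ± 20207 in the controls. miR-15b-5p had 809 ± 573 and 3835 ± 1338 in EtOH and control libraries, and holds a zero of the kind seen in miR-142a-5p. miR-21a-5p had 1879 ± 654 and 6379 ± 5968, and miR-342-3p 42.4 ± 10.5 and 134 ± 51.2, in EtOH and control libraries. miR-221-3p had 38.4 ± 17.2 and 114 ± 142, and miR-130a-3p 24.1 ± 3.47 and 84.6 ± 36.9, in EtOH and control libraries (SD, n = 4 each, for all 6). The 5 muscle features had a median of -2.56 over all features and -0.86 within miRNAs, with 0 past either threshold and 5 lower at an unadjusted p below 0.05 over all features. Of these, miR-143-3p had 2113 ± 878 scaled CPM across the EtOH libraries and 10350.1 ± 12751 in the controls, and miR-145a-5p 413 ± 110 and 2875 ± 4288 (SD, n = 4 each).

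Messenger RNA fragments of the same cells were scarce. Summed exon fragments of red blood cell transcripts, mostly hemoglobin, were 7.82, 5.45, 2.94 and 18.6 CPM of the library total in the 4 EtOH libraries, and 17.9, 33.7, 21.9 and 21.0 in the controls, with counts for 10 of 12 genes. EtOH replicate 4, the EtOH library with the most red blood cell miRNA at 252 CPM, was also highest here, and overlapped control replicate 1. Control replicate 3, with the least red blood cell miRNA among controls at 216 CPM, was not low in hemoglobin. Hbb-b1 and Hbb-b2 were at 0, and the highest gene, the beta globin Hbb-bs, had 18, 4, 2 and 34 exon counts in the EtOH libraries and 15, 36, 31 and 29 in the controls. Globin genes have near-identical copies, so their counts may be shared between copies. Hba-a1 and Hba-a2 had 10, 3, 5 and 19 against 10, 3, 4 and 20 exon counts in the EtOH libraries. In the controls they had 20, 36, 22 and 26 against 20, 36, 24 and 26. The summed red blood cell fragments may therefore hold the same reads more than once. Endothelial transcripts summed to 5.72, 2.25, 6.61 and 6.67 CPM across the EtOH libraries, and 8.49, 10.2, 8.75 and 7.34 in the controls, with no overlap of the exon sums and counts for 10 of 10 genes. Intron fragments of the endothelial genes did overlap, with 7.72 to 13.5 CPM in EtOH and 11.1 to 21.8 CPM in control libraries. Those of the red blood cell genes overlapped as well, with 0.642 to 3.09 CPM in EtOH and 1.38 to 3.15 CPM in control libraries. Leukocyte transcripts ranged over 8.96 to 51.7 CPM across the EtOH libraries and 9.64 to 24.9 in the controls, with counts for 12 of 12 genes. Intron fragments of the same leukocyte genes were 3.51 to 5.11 CPM in EtOH and 5.53 to 7.60 CPM in control libraries, with no overlap, while the exon sums overlapped. Of all single features, 7.81% did not overlap with EtOH lower. The highest endothelial gene was Vwf, and the highest leukocyte gene Cd74. The part of blood and vessel cells in the miRNA differences was not tested.

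**Figure D4:**
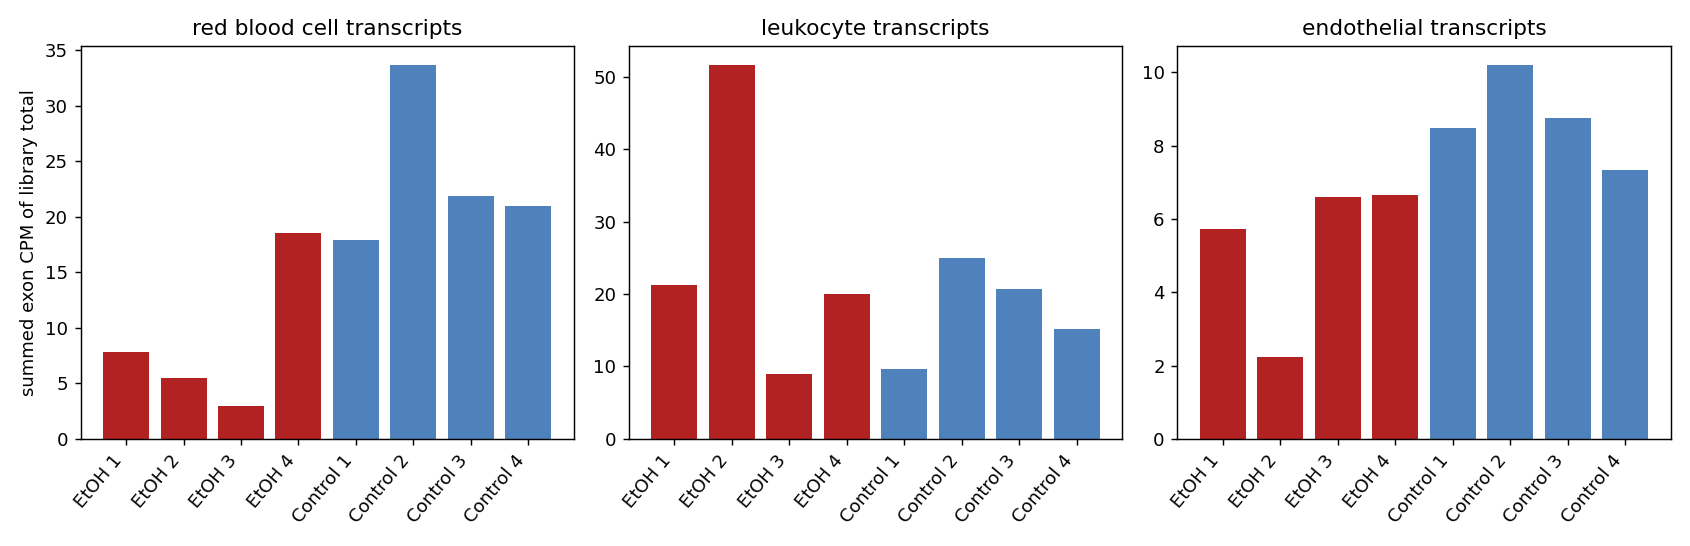
Bars give the exon fragments, in CPM of the library total, summed over 12 red blood cell, 12 leukocyte and 10 endothelial genes in each EtOH library (red) and control library (blue). Endothelial exon sums do not overlap between groups, red blood cell sums overlap in EtOH replicate 4 and control replicate 1, and leukocyte sums are highest in EtOH replicate 2. Sperm exon sums, not drawn, are also lower in EtOH without overlap, as are 7.81% of single features.

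Of the single rows tested from these 3 transcript lists, 1 each, none passed the adjusted threshold, and the endothelial row was lower at an unadjusted p below 0.05. Sperm transcripts, with all 9 genes detected, summed to 296 to 425 exon CPM across the EtOH libraries and 479 to 565 in the controls. Like the endothelial exon sums, they did not overlap and were lower in EtOH. The protamine genes Prm1 and Prm2, which package sperm DNA, had counts in every library. Epididymal transcripts, mainly Crisp1, summed to 701 to 17619.9 exon CPM across the EtOH libraries and 355 to 487 in the controls, with no overlap. The part of epididymal RNA in the miRNA differences was not tested. Over all features 0 of 32 sperm rows and 0 of 19 epididymal rows passed, with 4 sperm rows lower and 13 epididymal rows higher at an unadjusted p below 0.05, against 9.15% of all features lower and 17.9% higher. Exon fragments of the members' host genes were near the limit of counting, with 1, 0, 3 and 1 counts of Egfl7 in the EtOH libraries and 0, 5, 4 and 4 in the controls. Ank1 had 6, 1, 6 and 9 in the EtOH libraries and 5, 6, 3 and 4 in the controls. Of the genes that mature miRNAs, 11 rows of 6 genes were tested and 0 passed. Ago2 had 365, 169.7, 522 and 225 exon CPM across the EtOH libraries and 333, 209.7, 287 and 346 in the controls, so the groups overlapped.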

How the data were processed

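Small RNA from sperm was sequenced in 8 libraries. The labels cite an extraction with guanidinium thiocyanate plus a phosphine reducing agent, and say that read 1 alone was kept. The submitters' processing notes name cutadapt, an adapter trimmer. The deposited values are raw counts per annotated feature, with no normalization by the authors. Aligner, build, annotation and the handling of reads with several matches: not given in the sources used here. Columns were matched to samples by title, and replicate numbers follow accession order and pair nothing.

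Features passing filterByExpr (minimum count 10, minimum total 15) in edgeR 4.0.16 (R 4.3.3) were scaled by TMM over full library totals. The quasi-likelihood test was adjusted by Benjamini-Hochberg over all 10234 features, or over 241 within miRNAs. Ratios used a pseudocount of 0.5 counts and an exact permutation test. Alternatives used limma 3.58.1, DESeq2 1.42.0, other scalings and filters, and each library left out. A count of 0 was taken as an isolated zero where both the rate of the libraries with counts and the highest library of the same group predicted 50 counts or more, as in 74 features, 31 of them miRNAs and 2 of them members. All tested members are named, and of each related list the 2 most abundant features. Members and lists were chosen with earlier results of these data known. The fit was also run on simulated data, drawn with feature means, library totals and spread estimated from these same libraries. For changes of 2, 4, 8 and 16 fold it recovered 0%, 34%, 66% and 70% over all features. Within miRNAs it recovered 0%, 20%, 40% and 90%. Members that did not pass are therefore not read as unchanged. The labels name no molecular tags, so read counts may hold PCR copies, and totals of 3116421 to 6805989 counts per library limit the precision of the rarer rows.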

Additional observations from a re-analysis of the deposited data

Results flagged for a closer look

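In 38 groups of 4 libraries examined, over 12 members and 7 ratios, 3 had a library far from the other 3, measured as its gap to the nearest library divided by the range of the group and set against Dixon's critical value. By chance about 1 in 20 groups passes this limit. For miR-223-3p, control replicate 2 was the high library (0.855), with 49.2 scaled CPM against 11.0 to 16.6 in the other controls. For the ratio of miR-144-3p to miR-451a, control replicate 2 was the low library (0.913), and for the ratio of miR-142a-5p to miR-126a-3p it was again the low library (0.916). In both ratios the numerator was at 0 counts in that library.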

How the results depend on the processing

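Over all features, 19 passed the adjusted threshold. The count was 9 with median-of-ratios factors, 818 with library size alone, 1 with piRNA cluster totals, 997 with DESeq2, 655 with limma voom, 1642 with no filter, 11 with a mean count of at least 10, 721 without features with isolated zeros and 2572 with the EtOH libraries of the M form alone. Leaving out 1 library gave 3 to 2332. Member rows past the threshold, 0 as reported, numbered 3 with library size alone, 7 with DESeq2, 1 with limma voom, 7 with no filter, 7 without features with isolated zeros, 10 with the M form alone (8 without rows at 0 in both M libraries), and 0 to 9 with 1 library left out. The 12 tested members kept fitted values below 0 in all 224 alternatives computed. These are refits of the same libraries, where miRNAs as a class were lower in EtOH, so the shared sign is not separate support. DESeq2 and the fit with no filter also held the rows left untested in the main fit. There mir-155 (0.21 and 0.35) and miR-150-3p (0.19 and 1.47) lay above 0. The rows miR-144-3p, miR-486a-3p, miR-486b-3p, miR-223-5p and mir-223 lay below 0 in both fits. Library size alone gave a median over all features of 0.14 and piRNA cluster totals 0.12, against -0.09 as reported. Within miRNAs, 0 members passed under every alternative run. Values there crossed 0 with the EM form alone for miR-142a-5p (0.35) and mir-142a (0.31), and with the M form alone for miR-155-5p (0.18), miR-126a-3p (-0.50) and miR-126a-5p (-0.90). With 1 library left out, the ranges that crossed 0 were -1.36 to 0.065 for miR-486a-5p, -1.30 to 0.10 for miR-486b-5p, -0.61 to 0.15 for mir-142a, -0.40 to 0.027 for miR-155-5p, -0.30 to 0.55 for miR-126a-3p and -0.17 to 0.35 for miR-126a-5p. The log2 ratio differences between groups were, for miR-144-3p to miR-144-5p, 0.10 and 0.65 with pseudocounts of 1 and 5, for miR-144-3p to miR-451a 0.69 with 5, and for the miR-126a arms -0.0015 with 5. With 1 library left out these differences spanned -1.98 to 0.53, -2.41 to 0.0033 and -0.027 to 0.47. The log2 ratio of EtOH to control summed levels was -1.10, -0.51, 0.30 and -0.84 with miRNA counts as denominator for red blood cell, leukocyte, endothelial and all members, against -2.37, -1.68, -0.98 and -2.07 with library totals. Summed levels without rows with isolated zeros and the miR-486 copies summed were chosen after seeing the data. The cause of these shifts was not tested. No paired analysis was possible because the labels give the groups no shared replicate numbers. Depth limits the rarer rows, 7 of which were not tested.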
